A study of Mus musculus with 53 samples.

Results

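Signal transducer and activator of transcription (STAT) genes other than Stat6 were examined in macrophages stimulated with interleukin-4 (IL-4). The genes were Stat2, Stat3, Stat4, Stat5a and Stat5b, chosen by their symbol in the expression tables, where each had 1 locus. These 5 loci were drawn from 23847 in all. Bone marrow-derived macrophages (BMDMs) were grown for 6 days in L929 cell supernatant, a source of macrophage colony-stimulating factor, from the marrow of C57BL/6 wild-type (WT) mice and of full-body Stat6-/- mice aged 8 to 12 weeks. They received 20 ng/ml of IL-4 for 1, 3, 6 or 24 h or no IL-4 for the same time, and a further control was taken at 0 h. RNA-seq of the 53 samples gave 18 groups, with 2 samples in each Stat6-/- group and 4 in each WT group. The WT group that had IL-4 for 24 h held 3, since its replicate 1 is not analysed here. Values are FPKM (fragments mapped to a gene, corrected for transcript length and for the size of the library), so levels of different genes are compared per length.

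STAT proteins wait in the cytoplasm until a cytokine receptor is engaged. Janus kinases bound to the receptor chains then phosphorylate a tyrosine on the STAT, and the STATs pair and act on genes in the nucleus. IL-4 acts mainly through STAT6, and the other family members answer to other cytokines that macrophages meet. STAT2 joins IRF9 in the ISGF3 complex after type I interferon, STAT3 serves IL-6 and IL-10, STAT4 serves IL-12 and is best known from T and NK cells, and STAT5A and STAT5B, products of adjacent genes, serve GM-CSF, IL-3 and related cytokines. The comparisons here asked how the transcripts of these other STATs changed with IL-4, and whether the change differed without Stat6.

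On mm10 the files place Stat5b (chr11:100780731-100850585), Stat5a (chr11:100859351-100885169) and Stat3 (chr11:100886810-100939511) side by side, with 8765 bases between the first pair and 1640 bases between the second. Stat2 (chr10:128270576-128292849) lies on the chromosome of Stat6 (chr10:127642986-127660987), 609588 bases away, and Stat4 lies at chr1:52008244-52107184. RefSeq promoter windows (GRCm38.p6, 250 bases before a start site to 50 after) were found for all 5 genes, with more than 1 window for Stat4, Stat5a and Stat5b. They were searched on both strands for TTCNNNNGAA, the spacing that STAT6 prefers, TTCNNNGAA, the spacing of other STATs, and GAAANNGAAA (TTTCNNTTTC on the other strand), the core of the element that ISGF3 binds. Among 32817 promoter windows of this length, these letters occurred in 6.9%, 8.3% and 3.4%. Only the windows of Stat2 (chr10:128270248-128270547, plus strand) and of Stat4 at the start of its locus in the files (chr1:52007990-52008289, plus strand) held a match, and they are printed because these genes changed most in level. Capitals mark the matches.
Stat2: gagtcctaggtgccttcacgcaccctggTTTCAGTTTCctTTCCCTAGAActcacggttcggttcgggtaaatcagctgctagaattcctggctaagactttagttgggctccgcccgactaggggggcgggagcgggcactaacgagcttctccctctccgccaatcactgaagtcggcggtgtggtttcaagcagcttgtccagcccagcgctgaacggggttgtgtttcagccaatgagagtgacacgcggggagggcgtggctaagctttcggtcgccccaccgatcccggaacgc
Stat4: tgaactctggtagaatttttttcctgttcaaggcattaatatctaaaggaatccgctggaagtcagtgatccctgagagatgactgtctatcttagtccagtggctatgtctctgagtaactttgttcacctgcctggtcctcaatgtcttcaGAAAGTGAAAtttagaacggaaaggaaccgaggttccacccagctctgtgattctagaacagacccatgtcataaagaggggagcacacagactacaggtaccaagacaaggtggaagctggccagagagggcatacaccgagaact
The Stat2 window held TTTCAGTTTC from 222 to 213 bases before the start site and TTCCCTAGAA from 210 to 201 bases before it. The Stat4 window held GAAAGTGAAA from 97 to 88 bases before the start site. A match is a description of the letters in the window and does not show that a factor binds there.

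Stat6 itself separated the genotypes in every sample. It lay between 58.7 and 90.6 FPKM in the 35 WT samples and between 14.3 and 24.0 FPKM in the 18 Stat6-/- samples. The FPKM covers the whole locus, so the deleted part was not analysed apart. Of 7 macrophage markers, 6 were at 1 FPKM or more in every sample. Lyz2, singled out after its values were seen, was listed at 0 in 7 samples, although its median over all samples was 16530 FPKM. Why these values are 0 was not tested. All 4 T cell, all 5 fibroblast and all 4 erythroid markers stayed below 1 FPKM in every sample, while all 6 neutrophil markers were at 1 FPKM or more. Below 1 FPKM throughout were also 3 of 4 NK cell, 3 of 4 B cell, 3 of 5 dendritic cell and 3 of 5 mast cell and basophil markers. Their other markers reached 1 FPKM, Cd79b in every sample (1.11 to 13.6 FPKM). In some samples Ccr7 (up to 6.63 FPKM), Mcpt8 (1.45), Siglech (1.20), Klrd1 (1.035) and Cpa3 (1.025) did so. Relative depth ranged from 0.706 to 1.55 of the median sample, and absolute depth is unknown. Replicate 2 of Stat6-/- stood apart from replicate 1 in interferon-linked genes. All 21 ISGF3 target genes measured were higher in replicate 2 in each of the 9 groups, with a median log2 difference of 2.04 on the log2(FPKM + 1) scale, against 15.6% of all tested loci and a median of -0.03. Means over the 2 Stat6-/- samples are therefore given with the single values.

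Stat2 and Stat3 were the most abundant of the 5 genes and Stat4 the least. Median levels over the 53 samples were 52.95 FPKM for Stat2, 31.3 FPKM for Stat3, 15.95 FPKM for Stat5b, 8.58 FPKM for Stat5a and 0.972 FPKM for Stat4. In WT controls at 0 h the order was the same, with 64.2 ± 13.2 FPKM (SD, n = 4) for Stat2, 31.2 ± 1.27 for Stat3, 15.6 ± 1.12 for Stat5b, 8.84 ± 1.14 for Stat5a and 1.01 ± 0.152 for Stat4, and the samples of neighbours in this order did not overlap. After 24 h without IL-4, Stat2 (26.7 to 30.8 FPKM) and Stat3 (29.6 to 34.5 FPKM) overlapped. After 24 h with IL-4, Stat2 (14.2 to 19.5 FPKM) lay below Stat3 (22.3 to 24.2 FPKM) in WT. Over the 9 WT groups the highest group mean was 9.37 times the lowest for Stat4 and 4.54 times for Stat2, against 1.44 times for Stat3, 1.52 times for Stat5a and 1.43 times for Stat5b.

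**Figure D1:**
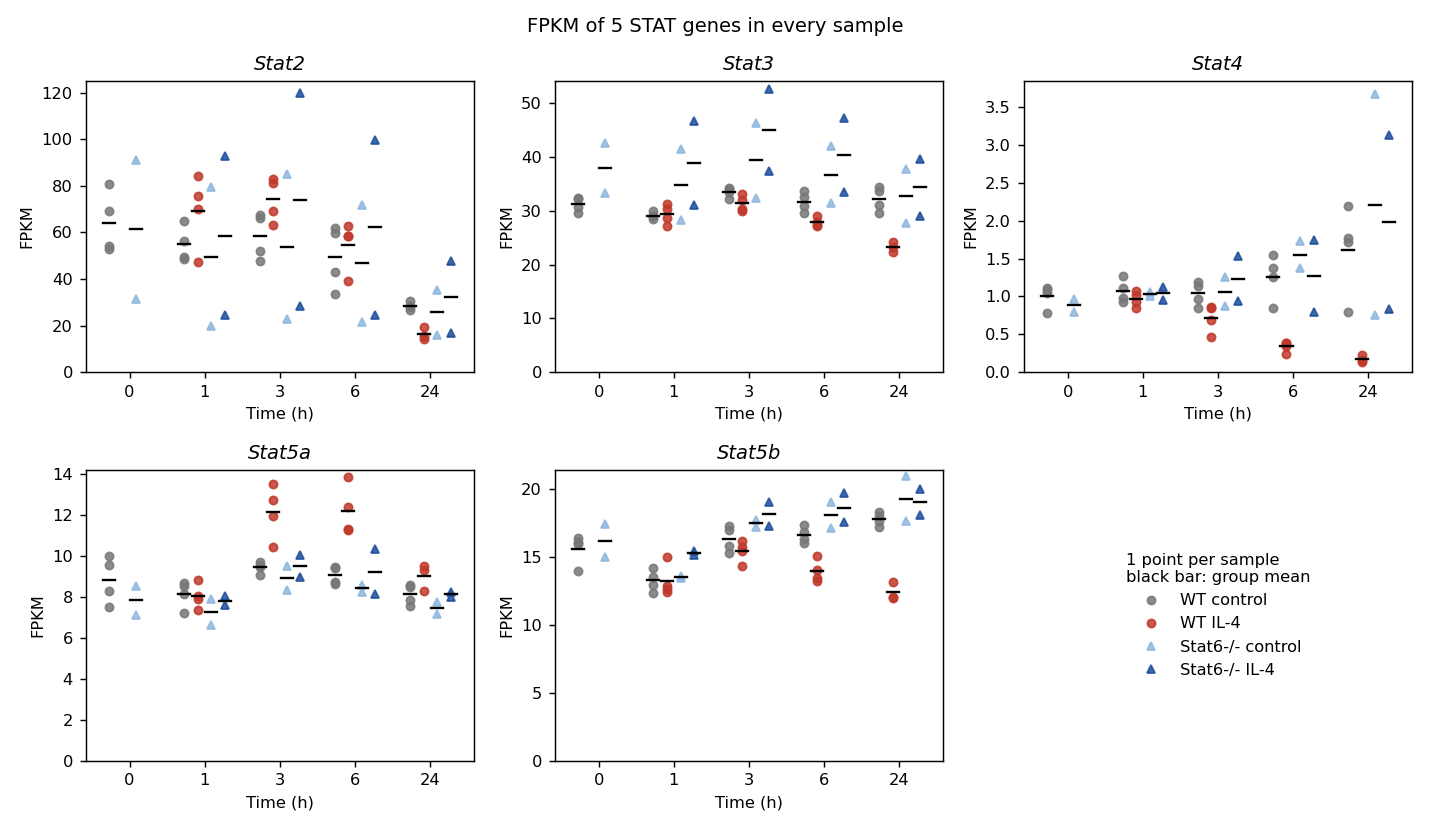
FPKM (linear axes from 0) of Stat2, Stat3, Stat4, Stat5a and Stat5b by time in h, with 1 point per sample, circles for WT, triangles for Stat6-/- and a black bar for each group mean. WT samples with IL-4 fall towards 0 for Stat4, lie above the controls at 3 and 6 h for Stat5a and below them at 6 and 24 h for Stat5b, while the pair of Stat6-/- samples is far apart for Stat2.

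Changes with IL-4 were tested with limma on log2(FPKM + 1) over 11146 loci, and a gene passed at a Benjamini-Hochberg adjusted p under 0.05. In WT, 0 of the 5 genes passed at 1 h, where 9.39% of all loci passed, 1 passed at 3 h (28.9% of loci), 3 passed at 6 h (41.2%) and 3 passed at 24 h (55%). With the replicate number as a block, 0, 2, 4 and 4 of the 5 genes passed at 1, 3, 6 and 24 h, as did 17.1%, 41.1%, 55.2% and 66.2% of all loci. IL-4 samples lay wholly above or below the controls for 0 of the 5 genes at 1 h, for 1 at 3 h and for 4 at both later times, while 16.1%, 38.9%, 46.1% and 64.5% of all loci did so at 1, 3, 6 and 24 h. The members differed in direction. Stat5a rose, Stat3, Stat4 and Stat5b fell, and Stat2 did not pass in this fit. None of these changes reached 2-fold on the log2(FPKM + 1) scale except that of Stat4 at 24 h.

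Stat4 fell most. At 3 h of IL-4 the WT samples held 0.861, 0.852, 0.691 and 0.462 FPKM, against 1.19, 1.14, 0.972 and 0.853 FPKM in the controls (replicates 1 to 4). The groups overlapped, and the log2 change of -0.25 ± 0.19 (SE) did not pass (adjusted p = 0.383). At 6 h the values were 0.390, 0.383, 0.351 and 0.239 FPKM with IL-4 and 1.38, 1.54, 1.25 and 0.848 FPKM without. Every IL-4 sample lay below every control. The mean was 3.68 times lower, and the log2 change was -0.74 ± 0.19 (adjusted p = 0.00193). A per-gene analysis with Tukey's adjustment gave an adjusted p of 0.0751 for it. At 24 h the values were 0.222, 0.162 and 0.134 FPKM with IL-4 (replicates 2 to 4) and 2.19, 1.72, 1.77 and 0.788 FPKM without. The mean was 9.37 times lower with IL-4, and the log2 change was -1.13 ± 0.21 (limma adjusted p = 2.18e-05). The log2(FPKM + 1) scale understates changes at such low levels. With a pseudocount of 0.1 in place of 1 the change at 24 h was -2.59 (limma adjusted p = 5.78e-08) and that at 6 h was -1.61. All 11 WT pairs of the same replicate number at 3, 6 and 24 h fell, by ratios from 0.748 down to 0.0915. An exact two-sided permutation test over the samples at 24 h gave p = 0.0571. Of the distinct 100-base stretches of the protein-coding GENCODE M21 transcripts of Stat4, 22.8% also occurred in an overlapping read-through transcript annotated as a gene of its own, so Stat4 levels are uncertain where fragments could have been split.

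In Stat6-/- the same comparison at 24 h gave 0.828 FPKM with IL-4 against 0.750 without in replicate 1 and 3.13 against 3.67 in replicate 2, a log2 change of -0.06 ± 0.27 (adjusted p = 1). Replicate 2 was 4.89 times replicate 1 in the 24 h controls, so the Stat6-/- mean rests on 2 unlike samples. The difference between the genotypes' responses was -1.07 ± 0.34 (adjusted p = 0.0180). It was -1.05 with the block (adjusted p = 0.00112), but it missed the threshold without WT replicate 1 (adjusted p = 0.0657), 2 (0.0689) or 3 (0.0905) and when only the 4 groups compared were fitted (0.243). At 6 h the difference was -0.55 ± 0.34 and did not pass (adjusted p = 0.316). With a pseudocount of 0.1 the differences were -2.54 at 24 h (limma adjusted p = 0.000753) and -1.26 at 6 h (0.123). NK and T cells are known for Stat4. In WT at 24 h the summed level of 4 NK cell markers was 0.219 to 0.584 FPKM in controls and 0.0663 to 0.251 FPKM with IL-4, and that of 4 T cell markers was 0.253 to 0.704 FPKM in controls and 0.321 to 0.369 FPKM with IL-4. Both ranges overlapped. Of the NK cell markers, Ncr1 was at 0 in 40 of 53 samples and Prf1 in 45. Klrb1c was at 0 in 4 samples and Klrd1 in 0, with Klrd1 at up to 1.035 FPKM. The part of such cells in the Stat4 values was not tested. In bulk samples, fewer cells that hold a transcript and less transcript per cell cannot be told apart.

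Stat5a rose and Stat5b fell with IL-4 in WT. Stat5a held 12.7, 10.4, 11.9 and 13.5 FPKM with 3 h of IL-4 against 9.43, 9.07, 9.55 and 9.67 FPKM in the controls. No IL-4 sample overlapped a control, and the log2 change was 0.33 ± 0.08 (adjusted p = 0.00140). At 6 h Stat5a was at 11.3, 11.2, 12.4 and 13.8 FPKM with IL-4 and at 8.73, 8.60, 9.38 and 9.44 FPKM without, a log2 change of 0.39 ± 0.08 (adjusted p = 0.000125). At 24 h the groups overlapped again, at 9.48, 8.27 and 9.31 FPKM with IL-4 and 7.84, 7.57, 8.57 and 8.46 FPKM without (log2 change 0.14 ± 0.09, adjusted p = 0.183). This last value passed after median-ratio scaling (0.22, adjusted p = 0.0103) or quantile normalization (0.20, adjusted p = 0.0336). At 1 h the log2 change was -0.02 ± 0.08, so the change between 1 and 3 h was itself tested. The response at 3 h exceeded that at 1 h by 0.34 ± 0.11 (adjusted p = 0.0434, 11.1% of loci passing), but it missed the threshold without WT replicate 1 (adjusted p = 0.245), 3 (0.120) or 4 (0.273).

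Stat5b was at 13.4, 13.2, 14.1 and 15.1 FPKM with 6 h of IL-4 and at 16.3, 15.99, 16.8 and 17.3 FPKM in the controls. The groups did not overlap, and the log2 change was -0.24 ± 0.06 (adjusted p = 0.00187). At 24 h Stat5b fell to 12.0, 12.1 and 13.2 FPKM with IL-4, against 18.3, 17.6, 17.2 and 17.98 FPKM without. The log2 change was -0.49 ± 0.07 (adjusted p = 1.33e-07), and it was past the threshold in each fit that left out 1 WT replicate. The further fall from 6 to 24 h was -0.25 ± 0.09 (adjusted p = 0.0398, 27.8% of loci passing), and it missed the threshold without any 1 of the 4 WT replicates, with adjusted p from 0.0968 to 0.136. It was -0.16 after quantile normalization (adjusted p = 0.153) and after median-ratio scaling (0.126). From 3 to 6 h, 0 of the 5 genes passed, as did 3.31% of all loci (0 with the block, and 1, Stat4, when only the groups compared were fitted).

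In Stat6-/- neither gene passed. Stat5b with 24 h of IL-4 was at 18.1 and 20.0 FPKM against 17.6 and 21.0 FPKM in the controls, and the difference between the genotypes' responses was -0.47 ± 0.11 (adjusted p = 0.00136) at 24 h. At 6 h it was -0.28 ± 0.11, which passed with the replicate block (adjusted p = 0.0179) and missed the threshold without it (0.0718). Stat5a with 6 h of IL-4 was at 10.3 and 8.13 FPKM in Stat6-/- against 8.58 and 8.23 FPKM, and the difference between the genotypes' responses was 0.28 ± 0.14 (adjusted p = 0.192 without the block and 0.0441 with it). The 95% interval of the Stat6-/- change of Stat5a at 6 h ran from -0.12 to 0.34.

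**Figure D2:**
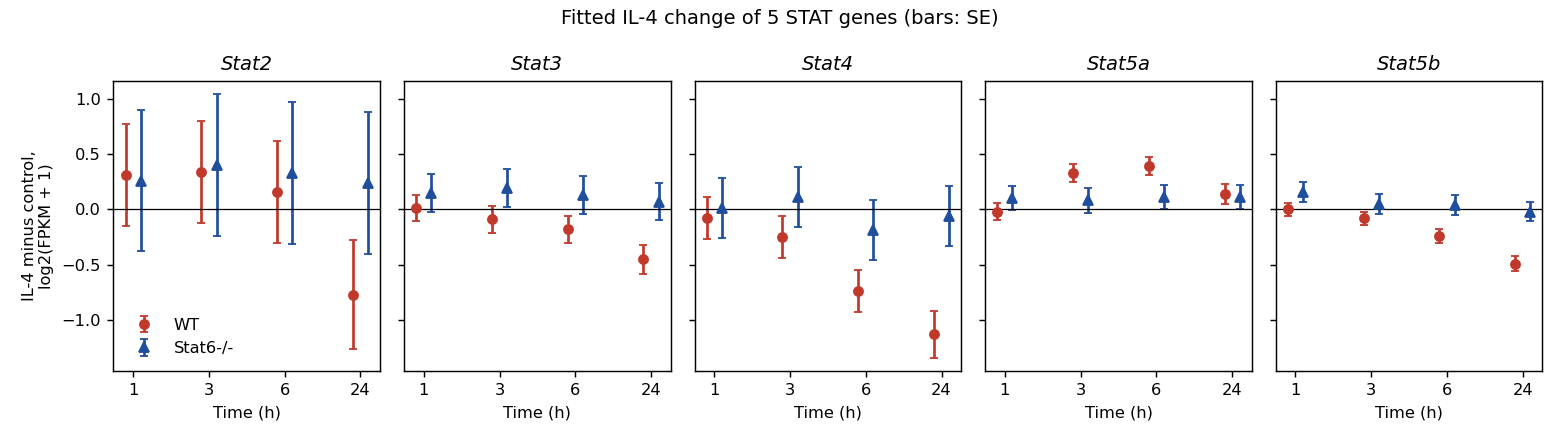
Fitted IL-4 minus control difference in log2(FPKM + 1) at 1, 3, 6 and 24 h for each gene, circles for WT, triangles for Stat6-/-, bars for SE. In WT Stat5a is at 0.33 and 0.39 at 3 and 6 h while Stat3, Stat4 and Stat5b fall to -0.45, -1.13 and -0.49 at 24 h.

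The ratio of Stat5a to Stat5b within a sample put both changes in a single value. In WT it was 0.544 ± 0.0101 (SD, n = 4) in controls and 0.873 ± 0.0342 (n = 4) with IL-4 at 6 h. It was 0.579 ± 0.0208 and 0.787 ± 0.0522 at 3 h and 0.457 ± 0.0340 (n = 4) and 0.728 ± 0.0549 (n = 3) at 24 h. The log2 ratio rose by 0.44, 0.68 and 0.67 at 3, 6 and 24 h, and at each of these times every IL-4 sample was above every control. At 1 h the change was -0.01. In Stat6-/- the ratio was 0.466 ± 0.0205 (n = 2) without and 0.494 ± 0.0426 (n = 2) with IL-4 at 6 h. This ratio was added after the values of both genes had been seen, so it is a description with no test. The paralogs share sequence. By the same count of 100-base stretches, 6.31% of those of Stat5a also occurred in Stat5b, and 4.87% the other way, so fragments from these stretches could have been split between the genes.

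**Figure D3:**
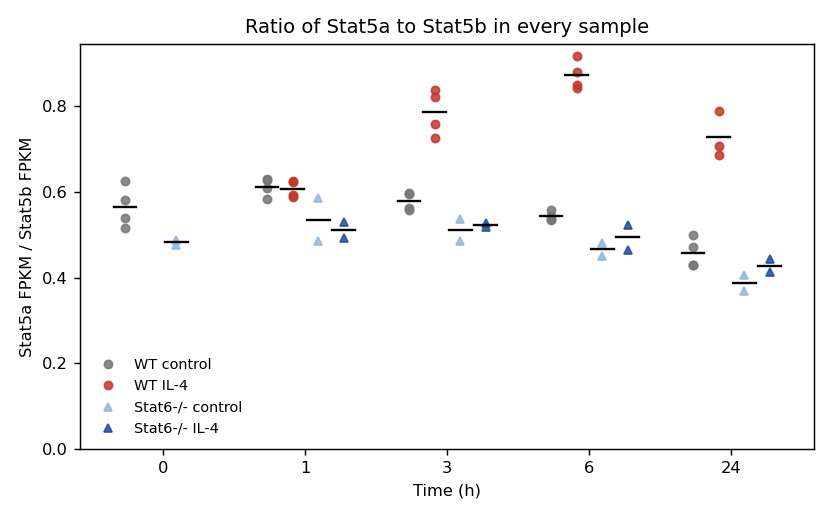
Stat5a FPKM divided by Stat5b FPKM (linear axis from 0) by time in h, with 1 point per sample and a black bar for each group mean. WT samples with IL-4 rise to a mean of 0.873 at 6 h, above every control, while the control ratio declines to 0.457 at 24 h.

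Stat3 fell in WT by 24 h. The samples held 23.3, 22.3 and 24.2 FPKM with IL-4 and 34.5, 29.6, 33.8 and 31.2 FPKM without. The groups did not overlap, and the log2 change was -0.45 ± 0.13 (adjusted p = 0.00445). It missed the threshold in limma without WT replicate 3 (-0.40, adjusted p = 0.0760) and with Tukey's adjusted p (0.146). At 6 h Stat3 was at 27.9, 27.3, 29.0 and 27.4 FPKM with IL-4 and 32.7, 30.8, 33.6 and 29.7 FPKM without, a log2 change of -0.18 ± 0.12. It did not pass in the fit over all groups (adjusted p = 0.259) and passed with the block (0.000573) or with only these groups fitted (0.0192). An exact two-sided permutation test over these samples gave an unadjusted p of 0.0286. That is the lowest it can give with 4 samples per group, and any gene whose groups do not overlap reaches it. In Stat6-/- Stat3 was instead higher with IL-4 in 8 of 8 pairs of the same replicate number, by 1.05 to 1.15 times. At 3 h the pairs were 37.4 against 32.4 FPKM and 52.6 against 46.4 FPKM. Averaged over times, this change was 0.13 ± 0.09 (adjusted p = 1 without the block, 0.0257 with it and 0.629 with the replicate number as a random effect, which uses an estimated correlation). Of all tested loci, 2.1% were higher in all 8 pairs, which are 2 replicate numbers at 4 times and so not independent. The difference between the genotypes' responses passed with the block at 3 h (-0.28, adjusted p = 0.00417), 6 h (-0.30, 0.00145) and 24 h (-0.51, 1.46e-06). Without the block the adjusted p was 0.551, 0.404 and 0.0751 over all samples, and at 3 h it was 0.0585 with the random effect. With Stat6-/- replicate 1 left out, the difference was -0.34 at 6 h and -0.52 at 24 h. With Stat6-/- replicate 2 left out, it was -0.52 at 24 h. These fits leave 1 sample in each Stat6-/- group, so no test is given for them.

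Stat2 differed widely between replicate numbers, and in WT it was lower with IL-4 at 24 h. In Stat6-/- replicate 2 held 2.21 to 4.24 times as much Stat2 as replicate 1, and it was higher in 9 of 9 groups. In WT controls replicates 1 to 4 averaged 61.2, 55.9, 45.3 and 42.2 FPKM over the 5 times. At 3 h the WT values were 83.0, 81.2, 63.3 and 69.4 FPKM with IL-4 and 67.7, 66.4, 52.0 and 47.9 FPKM without. IL-4 was higher in 4 of 4 pairs, by 1.22 to 1.45 times, and the change of 0.34 passed with the block (SE 0.11, adjusted p = 0.0131) and not without it (SE 0.46, adjusted p = 0.660) or with the random effect (adjusted p = 0.197 with an estimated correlation). At 24 h the values were 19.5, 15.3 and 14.2 FPKM with IL-4 and 30.8, 27.8, 28.5 and 26.7 FPKM without, with no overlap. The log2 change of -0.77 ± 0.49 did not pass in the fit over all groups (adjusted p = 0.184), whose spread includes the Stat6-/- samples, and it was -0.69 ± 0.12 with the block (adjusted p = 9.20e-06). With only these groups fitted the SE was 0.10 (adjusted p = 0.000440). Within WT pairs Stat2 was higher with IL-4 in 3 of 4 at 1 h, 4 of 4 at 3 h, 3 of 4 at 6 h and 0 of 3 at 24 h, and the shift from 6 to 24 h passed with the block (-0.85, adjusted p = 8.42e-05) and not without it (0.322).

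In Stat6-/- Stat2 was higher with IL-4 in 8 of 8 pairs, by 1.05 to 1.41 times. At 24 h it was 16.8 against 16.03 FPKM and 47.6 against 35.5 FPKM. The averaged change of 0.31 ± 0.32 passed neither without (adjusted p = 1) nor with the block (0.0985). The WT and Stat6-/- responses differed at 24 h with the block (-0.93, adjusted p = 0.000310) and not without it (-1.01, 0.374).

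**Figure D4:**
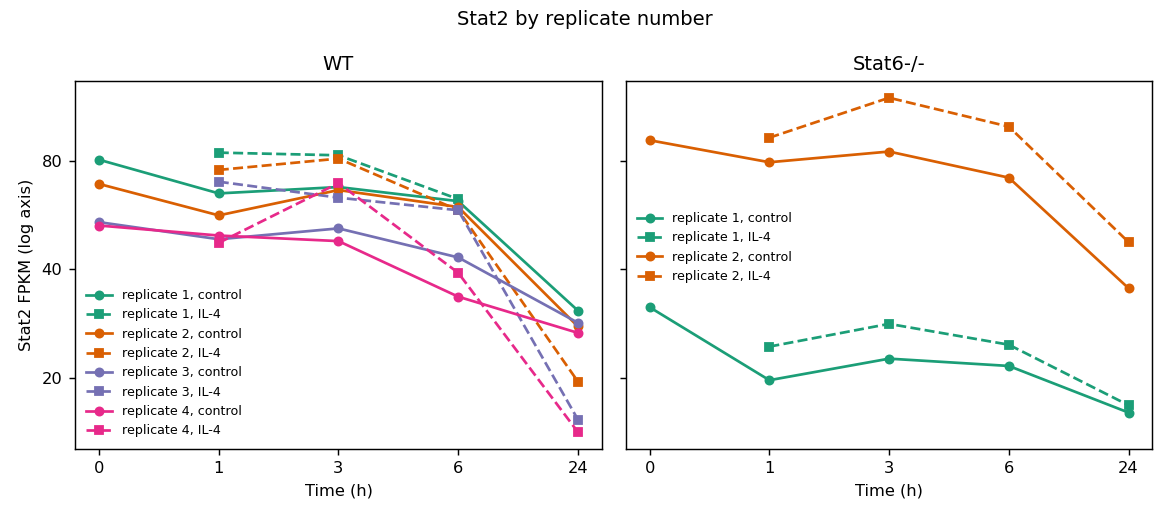
Stat2 FPKM (log axis) by time in h for each replicate number, WT left and Stat6-/- right, solid lines for controls and dashed lines for IL-4. The Stat6-/- replicates are apart throughout, at 16.03 to 31.4 FPKM and 35.5 to 120 FPKM, and in WT the IL-4 samples at 24 h are the lowest, at 14.2 to 19.5 FPKM.

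Across the Stat6-/- samples 0 of the 5 genes passed at 1, 3, 6 or 24 h, where 0%, 0%, 0% and 0% of loci passed with limma. Of the 11146 loci, 51, 131, 88 and 37 had an unadjusted p under 0.05, and 2, 4, 4 and 1 passed with the block. Averaged over times, 0.00897% passed without the block, which was Cish alone. With the block 46 loci (0.413%) passed. Among the named genes these included Socs1 (0.58, limma adjusted p = 0.0380 with the block) and Csf2rb (0.23, 0.00985) as well as Cish. Of the difference between the genotypes' responses, 0 of 5 genes passed at 1, 3 or 6 h, where 3.36%, 11.2% and 16.5% of loci passed, and 2 (Stat4 and Stat5b) passed at 24 h, as did 27% of loci. With the block these counts were 0, 1, 3 and 4, where 7.55%, 21.4%, 30.2% and 45.03% of loci passed.

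Controls without IL-4 were also compared over time. In WT controls 0 of 5 genes passed at 1, 3 or 6 h against 0 h, where 2%, 0.144% and 0.135% of loci passed (1306, 722 and 903 loci had an unadjusted p under 0.05, and with the block 1, 0 and 1 of the 5 genes passed, as did 6.48%, 1.29% and 5.21% of loci). At 24 h Stat5b passed (0.18 ± 0.06, adjusted p = 0.0422, 17.2% of loci), from 16.1, 14.0, 15.95 and 16.4 FPKM at 0 h to 18.3, 17.6, 17.2 and 17.98 FPKM. It missed the threshold without any 1 WT replicate (adjusted p from 0.0836 to 0.225). Stat2 fell by 1.13 on the log2 scale in both genotypes, with adjusted p = 8.89e-10 in WT and 3.51e-06 in Stat6-/- with the block and 0.0819 and 0.411 without it. In WT it went from 80.6, 69.1, 54.1 and 52.95 FPKM to 30.8, 27.8, 28.5 and 26.7 FPKM, and in Stat6-/- from 31.4 and 91.3 FPKM to 16.03 and 35.5 FPKM. In Stat6-/- 0 of 5 genes passed at 24 h against 0 h without the block, where 0.718% of loci passed (1643 had an unadjusted p under 0.05), and 4 passed with it, as did 16.8% of loci. These were Stat2, Stat3 (-0.21, adjusted p = 0.0128, and 0.0983 with the random effect), Stat4 (0.61, 0.0371) and Stat5b (0.24, 0.0260). For Stat4 the change came from replicate 2, which went from 0.971 to 3.67 FPKM, while replicate 1 went from 0.791 to 0.750 FPKM. The Stat5b change also came mainly from replicate 2, which went from 14.97 to 20.96 FPKM, while replicate 1 went from 17.42 to 17.62 FPKM.

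Between the genotypes, 0 of 5 genes passed in controls averaged over times, where 21.4% of loci passed (5.43% with the replicate number as a random effect). The nearest were Stat3, higher in Stat6-/- by 0.18 ± 0.07 (adjusted p = 0.0520), and Stat5a, with a log2 difference of -0.12 ± 0.04 (adjusted p = 0.0563). Stat3 averaged 30.7 and 42.1 FPKM in the Stat6-/- replicates and 32.5, 30.7, 32.6 and 30.4 FPKM in the WT replicates, so its difference rested on replicate 2. Without Stat6-/- replicate 1 it was 0.40, with 1 Stat6-/- replicate number left, so no test is given for it. An exact permutation test over the 6 replicate means, which cannot go below p = 0.0667, gave p = 0.267 for Stat3 and 0.200 for Stat5a. For Stat2 the sign turned with the replicate left out, from 0.50 without replicate 1 to -1.13 without replicate 2.

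Of the Janus kinases, which phosphorylate STATs, Jak1 was the most abundant in WT controls (42.4 FPKM at 6 h), and Jak2 rose most with IL-4. Jak2 rose in WT at all 4 times, from 11.1 ± 1.304 to 39.9 ± 4.27 FPKM (SD, n = 4) at 6 h, a log2 change of 1.76 (adjusted p = 4.33e-18). The response differed from that of Stat6-/- at each time, by 1.67 at 6 h (adjusted p = 5.02e-10). Jak1 passed at 6 h (0.18, adjusted p = 0.00913), Jak3 fell at 24 h (-0.81, adjusted p = 0.0132) and Tyk2, the kinase of interferon and IL-12 receptors, was at -0.23 at 24 h (adjusted p = 0.134).

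Counts in the pathway lists are set against the shares of all loci that passed in WT, which were 9.39%, 28.9%, 41.2% and 55% at the successive times. Receptor chains that use these STATs moved in both directions. Of 9 tested chains that use STAT3, 4 rose and 1 fell at 6 h and 3 rose and 5 fell at 24 h in WT. Csf3r, the G-CSF receptor, rose from 29.3 to 90.3 FPKM at 6 h (1.59, adjusted p = 2.01e-17), Il11ra1 rose from 14.7 to 68.2 FPKM at 24 h (2.17, adjusted p = 1.26e-08), and Il10ra, the IL-10 receptor chain, fell from 97.0 to 31.6 FPKM (-1.58, adjusted p = 1.10e-12). Of 7 tested chains that use STAT5, 2 rose and 2 fell at 6 h and 3 rose and 1 fell at 24 h. Csf2rb, the shared chain of the GM-CSF, IL-3 and IL-5 receptors, rose from 65.0 to 184.9 FPKM at 6 h (1.5, adjusted p = 2.66e-11), and Il7r fell from 88.3 to 36.9 FPKM at 3 h (-1.25, adjusted p = 4.31e-05). Epor, the erythropoietin receptor, was low and fell from 0.500 to 0.114 FPKM at 24 h (-0.43, adjusted p = 0.0293). Of 2 tested chains that use STAT4, 0 rose and 1 fell at 24 h, which was Il12rb2 (from 2.64 to 1.32 FPKM, -0.65, adjusted p = 4.55e-05). All 3 of Ifnar1, Ifnar2 and Irf9 fell at 24 h. Irf9, the DNA-binding partner of STAT2, went from 41.0 to 20.6 FPKM (-0.97, adjusted p = 5.83e-05), and its response differed from Stat6-/- by -1.0 (adjusted p = 0.0165). Ifnar1 fell already at 3 h (-0.27, adjusted p = 0.000313). Of 5 tested ligands, 2 rose and 1 fell at 6 h (41.2% of all loci passing) and 0 rose and 3 fell at 24 h (55%). Il10 rose from 6.47 to 12.8 FPKM at 3 h (0.88, adjusted p = 0.00121), Ebi3 fell from 84.7 to 23.1 FPKM at 24 h (-1.82, adjusted p = 2.44e-12), and Osm fell at 1 h (-0.43, adjusted p = 0.00873).

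Of 17 inhibitors of the pathway, 5 rose and 1 fell in WT at 1 h (9.39% of all loci passing), and 8 rose and 3 fell at 24 h (55%). Socs1, which blocks Janus kinases, rose from 0.592 ± 0.172 to 95.3 ± 21.1 FPKM at 1 h (5.90, adjusted p = 3.04e-20). Pias3, a protein inhibitor of STAT3, fell at 24 h (-0.90, adjusted p = 1.70e-08), and Socs7 fell at 1 h (-0.20, adjusted p = 0.00376). Of 10 STAT3 target genes, 5 rose and 1 fell at 6 h and 2 rose and 3 fell at 24 h (medians 0.25 and 0.07, against 0.00 and -0.07 over all loci). Nfil3 rose from 5.32 to 98.0 FPKM at 1 h (3.97, adjusted p = 4.92e-23), Bcl3 fell from 13.0 to 4.03 FPKM (-1.49, adjusted p = 2.61e-06) and Sbno2 fell at 6 h (-0.44, adjusted p = 0.0278). Of 2 tested STAT4 target genes, 1 rose and 0 fell at 3 h, which was Il18rap (from 0.965 to 2.21 FPKM, 0.71, adjusted p = 6.07e-05).

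Of 6 tested STAT5 target genes, 4 rose and 0 fell at 6 h and 3 rose and 1 fell at 24 h, with medians of 0.69 and 0.51 (41.2% and 55% of all loci passing). Cish, a feedback inhibitor that STAT5 is known to switch on, was at 37.7, 37.2, 47.4 and 47.7 FPKM with 6 h of IL-4 in WT and at 0.302, 0.350, 0.533 and 0.484 FPKM in the controls. It also rose in Stat6-/-. At 1 h it was at 1.21 and 1.52 FPKM with IL-4 against 0.390 and 0.126 FPKM, and at 3 h at 1.31 and 2.11 FPKM against 0.552 and 0.383 FPKM. It was higher with IL-4 in 8 of 8 pairs (2 replicate numbers at 4 times), as were 2.1% of all tested loci. Its change averaged over times was 0.62 ± 0.10 (adjusted p = 0.00255 over all loci, and 1.70e-05 with the block). The WT response was larger by 4.42 at 6 h (adjusted p = 2.02e-17).

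Of 21 ISGF3 target genes, 0 rose and 4 fell at 6 h in WT and 0 rose and 15 fell at 24 h (medians -0.60 and -1.70, against 0.00 and -0.07 over all loci, of which 41.2% and 55% passed). Ifit3 went from 61.5 to 2.59 FPKM at 24 h (-4.16, adjusted p = 6.23e-06), and its response differed from Stat6-/- by -4.35 (adjusted p = 0.00487). In the difference between the genotypes' responses at 24 h, 0 of the 21 rose and 3 fell, where 27% of all loci passed. At 1 and 3 h, 0 rose and 0 fell (medians -0.08 and -0.10). Without IL-4 the median of these genes went down by 24 h in both genotypes (-1.30 in WT and -1.49 in Stat6-/-), with 1 of 21 passing in WT and 0 in Stat6-/-. At 24 h the summed level of the 6 neutrophil markers was 443 to 614 FPKM in WT controls and 220 to 320 FPKM with IL-4. The sum of the 7 macrophage markers was also lower, at 21760 to 27820 FPKM in controls and 6644 to 8048 FPKM with IL-4. That of the 4 B cell markers was 2.586 to 5.415 FPKM and 1.232 to 1.518 FPKM. The fibroblast sum was lower too, at under 1 FPKM in all these samples, and the sums of the other marker lists overlapped. The part of any cell type in the 24 h results was not tested.

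Genes whose 18 group means were most like those of each member were ranked by Pearson's r of the log2(FPKM + 1) means, as a description of groups that share libraries. For Stat2 these were Ogfr (r = 0.977), Gm12250 (0.973) and Ifi47 (0.968), the last a gene known to respond to interferon. For Stat4 they were Ulk2 (0.967), Abca9 (0.967) and Fert2 (0.955). Stat5a was nearest to Csnk1d (0.948), Akap1 (0.944) and Tnpo3 (0.942), and Stat5b to 1700021K19Rik (0.935), 0610030E20Rik (0.927) and Ep300 (0.919). Stat3 was nearest to Ttyh3 (0.936), Slc12a9 (0.926) and Rhobtb1 (0.920). Among the members themselves the highest r was 0.766 (Stat4 and Stat5b) and the lowest was -0.533 (Stat4 and Stat5a).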

How the data were processed

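The authors prepared poly-A RNA-seq libraries from 1 µg of total RNA and mapped reads to mm10 with TopHat (TopHat2 2.0.7 in the submitters' processing notes). They deposited 1 table of FPKM per sample from Cufflinks (2.0.2 in the same notes). The gene annotation is not given in the sources used here. FPKM is relative within a sample, so a change in abundant genes shifts the others. No counts or depths were used. Relative depth came from 7647 loci below 1 FPKM, and 99.7% of the pairwise ratios agreed to within 2%. A locus was tested if any sample reached 1 FPKM, which left 11146 loci, on log2(FPKM + 1) in limma 3.58.1 (R 4.3.3), with a mean per group over all 53 samples, a trended prior, 35 residual degrees of freedom and Benjamini-Hochberg adjustment within each comparison. Tests were two-sided. The fit was tested on simulated data with independent noise in each sample. That test therefore did not cover deviations shared by samples of the same replicate number.

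Replicate numbers were taken to mark animals, since the study describes individual animals. Deviations from group means correlated at 0.223 within a number and -0.074 between numbers in WT, with 111 of 136 pairs over 0.1 and the lowest at -0.145, and at 0.714 in Stat6-/-. A block for the replicate number within genotype was an alternative, as were other pseudocounts, filters, scalings, sample choices, Tukey's adjustment and exact permutation (scipy 1.17.1). Named genes were the 5 STAT genes, Stat6, the Janus kinases, the largest increase and decrease among passing genes of each pathway list at each WT time, and the 3 loci most like each STAT gene. Members and lists were chosen with earlier results of these data known. Only tests over samples were used. The genome of the promoter windows was RefSeq GRCm38.p6, the same assembly as mm10.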

Additional observations from a re-analysis of the deposited data

Results flagged for a closer look

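In 48 WT groups of 4 samples (the 5 STAT genes and Stat6), 2 held a sample far from the others, and chance alone gives about 1 in 20, or 2.4. Stat5b in replicate 3 with 1 h of IL-4 was at 15 FPKM, with the others at 12.4 to 12.9 FPKM. Stat6 in replicate 4 with 1 h of IL-4 was at 68.9 FPKM, with the others at 71.8 to 72.3 FPKM.

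The IL-4 response at 24 h differed between WT and Stat6-/- for Stat4 (-1.07 on the log2(FPKM + 1) scale) and for Stat5b (-0.47), each by the test of the difference itself. WT samples of both genes were lower with IL-4 in 3 of 3 pairs of the same replicate number. In Stat6-/- Stat4 and Stat5b were each higher in 1 of 2 pairs.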

How the results depend on the processing

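The 5 genes kept the direction of every change in WT with IL-4 that passed. One value reversed, namely Stat2 between genotypes, at 0.50 without Stat6-/- replicate 1 and -1.13 without replicate 2. Counts out of 5 genes follow, and where a cause is not evident it was not tested. With the replicate block, 2, 4 and 4 genes passed in WT at 3, 6 and 24 h, 1 in Stat6-/- averaged over times, 1, 3 and 4 in the difference between genotypes' responses at 3, 6 and 24 h, 1, 1 and 2 in WT controls at 1, 6 and 24 h against 0 h, 4 in Stat6-/- controls at 24 h against 0 h, and 4 in the WT response at 24 h minus 6 h. Of all loci, 0.413% passed with the block in Stat6-/- averaged over times, 37.1% in WT controls at 24 h and 44.1% for 24 h minus 6 h. The other shares with the block are given above. The block changed no call in the direction of loss. As a random effect it gave 3 and 4 for the difference at 6 and 24 h, 1 and 2 for WT controls at 1 and 24 h, 3 for Stat6-/- controls and 4 for 24 h minus 6 h, and calls of the block were lost for WT at 3 h (1), Stat6-/- averaged (0), the difference at 3 h (0) and WT controls at 6 h (0). No filter gave 0 for WT controls at 24 h, for 3 h minus 1 h and for 24 h minus 6 h, with more loci tested. Quantile normalization and median-ratio scaling each gave 4 in WT at 24 h, 1 for the difference at 6 h, 2 between genotypes and 0 for 24 h minus 6 h. Fitting only the groups compared gave 4 in WT at both 6 and 24 h, 1 for the difference at 24 h and 1 between genotypes. It gave 1 for 6 h minus 3 h and 3 for 24 h minus 6 h, and in WT controls at 24 h Stat2 passed in place of Stat5b. Tukey's adjustment gave 2 in WT at both 6 and 24 h. The exact permutation test, unadjusted, gave 4 at 6 h and 3 at 24 h. Leaving out 1 WT replicate gave 2 to 3 in WT at 24 h, 1 to 2 for the difference at 24 h and 0 to 1 between genotypes. It also gave 0 for WT controls at 24 h, 0 to 1 for 3 h minus 1 h and 0 for 24 h minus 6 h. Leaving out a Stat6-/- replicate left 1 sample in each Stat6-/- group, so no counts are given for it. The totals below include those fits, in which that arm was assumed to vary like the other groups. Over all alternatives, 1279 of 1370 single-gene values kept direction and side of the threshold, 65 newly passed, 25 no longer passed and 1 reversed. The depth behind single values is unknown, which limits Stat4 at under 1 FPKM most.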
